A study of Mus musculus with 9 samples.

Results

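The transcription factors described here set cell identity across the blood lineages, and they were read in mouse acute myeloid leukemia driven by the MLL-AF9 fusion gene. They are the 10 genes Spi1, Runx1, Lmo2, Gata2, Gata1, Tal1, Gfi1, Gfi1b, Klf2 and Klf4, each taken by its symbol as 1 row of the deposited table of 55536 genes. Bulk RNA sequencing was done on 9 libraries in 3 groups of 3. In the leukemia model, c-kit+ cells from WT or IRF7-/- C57BL/6J mice were infected with a retrovirus that carries MLL-AF9 and GFP. GFP+ leukemia cells were put into C57BL/6J recipients aged 6 to 8 weeks that had not been irradiated, and at day 18 leukemia cells were sorted from bone marrow by surface c-kit, a stem cell factor receptor encoded by Kit. The sort gave AML-WT-c-kit- cells (WT c-kit- below), their counterpart AML-WT-c-kit+ (WT c-kit+ below) and, from leukemia labelled as lacking Irf7, AML-IRF7-/--c-kit+ cells. In IRF7-/- mice a reporter cassette takes the place of exons 2 and 3 of Irf7, an interferon regulatory factor, in every cell and not only in leukemia cells, and the recipients were wild type. AML-IRF7-/--c-kit- cells and normal bone marrow were not analysed here, so the sort and the genotype were each compared in 1 setting only. The labels do not say whether the 3 libraries of a group came from separate mice, so p-values measure the spread between libraries, which may be technical.

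Irf7 was read first as a check of the labels. It was 23.5, 22.3 and 32.3 TPM in the WT c-kit- libraries, 5.31, 3.91 and 3.36 TPM in the WT c-kit+ libraries, and 12.8, 5.97 and 7.95 TPM in those labelled AML-IRF7-/--c-kit+. The deposited values were taken as TPM, a unit that scales reads by gene length and by the library total. All of the last 3 libraries were above every WT c-kit+ library, the opposite of what a knockout label leads one to look for. A value for the whole gene does not tell the replaced exons from the remaining ones, so it cannot decide the label. The study reports a check of IRF7 in its WT and IRF7-/- leukemia models by qRT-PCR and Western blot. It does not tie that check to these libraries. They are called the knockout-labelled c-kit+ libraries from here on, and every direction drawn from them rests on that label. Kit followed the sort, with 0.52 to 3.03 TPM in WT c-kit- and 50.7 to 85.7 TPM in the other 6 libraries. Leukemia of the myeloid lineage was seen in the summed markers of all 9 libraries: over 7 myeloid genes, the level was 4805 TPM or more in each. Ly6g, which is 1 of the 7, was at 11.4 to 65.0 TPM in the WT libraries and only 0.65 to 1.77 TPM in the knockout-labelled ones. T cell markers summed to 1.58 TPM at most. B cell markers summed to 26.4 to 38.1 TPM, of which Cd79b alone made up 25.8 to 37.1 TPM. The 10 most abundant genes held 13.1% to 17.3% of the total in WT c-kit+ and 9.39% to 10.3% in the others. TPM keeps no read number, so the depth of a library is unknown and values carry no counting interval. Because the RNA is from bulk samples, fewer cells of a type and less RNA per cell cannot be told apart.

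As background, PU.1 (Spi1) and RUNX1 drive myeloid and early hematopoietic programs, while GATA1, GATA2, TAL1 and the bridging protein LMO2 assemble on DNA in complexes that serve stem, erythroid, megakaryocytic and mast cells. GFI1 and GFI1B are closely related zinc finger repressors that bind the same core letters and can repress each other, GFI1 in granulocytic and lymphoid cells and GFI1B in erythroid and megakaryocytic cells. KLF2 and KLF4 are zinc finger factors of mature monocytes, endothelium and resting lymphocytes, and KLF4 promotes monocyte differentiation.

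Each pair of groups was compared with limma on log2(TPM + 1) over every gene that reached 1 TPM in 3 or more of the 6 libraries, and p was adjusted over all genes tested. Because 1 is added before the log, the change of a gene at low TPM is understated. Of the 10 factors, 8 were tested, and Gata1 and Tal1 were too low in each comparison. A member passed the test with an adjusted p under 0.05. It passed both thresholds if its log2 fold change was also at least 1 in size.

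With the sort, from WT c-kit- to WT c-kit+ cells, 2 of the 8 factors rose, against 14.0% of 13261 genes tested, and 3 fell, against 27.6%. Gfi1 and Lmo2 rose, Klf4, Spi1 and Runx1 fell, and Klf2, Gata2 and Gfi1b did not pass. Gfi1 and Klf4 passed both thresholds, as 14.4% of all genes did. The libraries of the 2 groups did not overlap for 5 of the 8 factors, against 54.4% of all genes. The median log2 fold change was −0.45 over the 8 factors and −0.08 over all genes.

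From WT c-kit+ to the knockout-labelled c-kit+ libraries, only Lmo2 of the 8 tested rose, against 31.9% of 13238 genes, and 4 fell, against 16.1%. The 4 were Klf2, Klf4, Runx1 and Gfi1. Klf2 and Klf4 passed both thresholds, as 11.7% of all genes did. The groups did not overlap for 5 of the 8, against 59.1% of all genes. The median log2 fold change was −0.58 over the 8 factors and 0.12 over all genes, so a member with a value of zero lay below the typical gene. Both comparisons use the WT c-kit+ libraries, and their values for a member are therefore not independent.

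The knockout-labelled c-kit+ libraries differ from WT c-kit- in sort and in genotype, and the 2 cannot be told apart there. In that comparison Gfi1 and Lmo2 rose (30.7% of 13510 genes did), Spi1, Runx1, Klf2, Klf4 and Gfi1b fell (28.7% did), and Gata2 did not pass. Gfi1, Klf2, Klf4 and Runx1 passed both thresholds, against 20.3% of all genes, and 6 of the 8 factors did not overlap, against 67.1%. Klf4 was under 1 TPM in every knockout-labelled library. In each comparison with these libraries it met the filter through the WT group alone and could only be called lower. For each member without overlap the exact permutation test, two-sided, returned p = 0.1, and no lower value can come from 3 libraries a side.

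**Figure D1:**
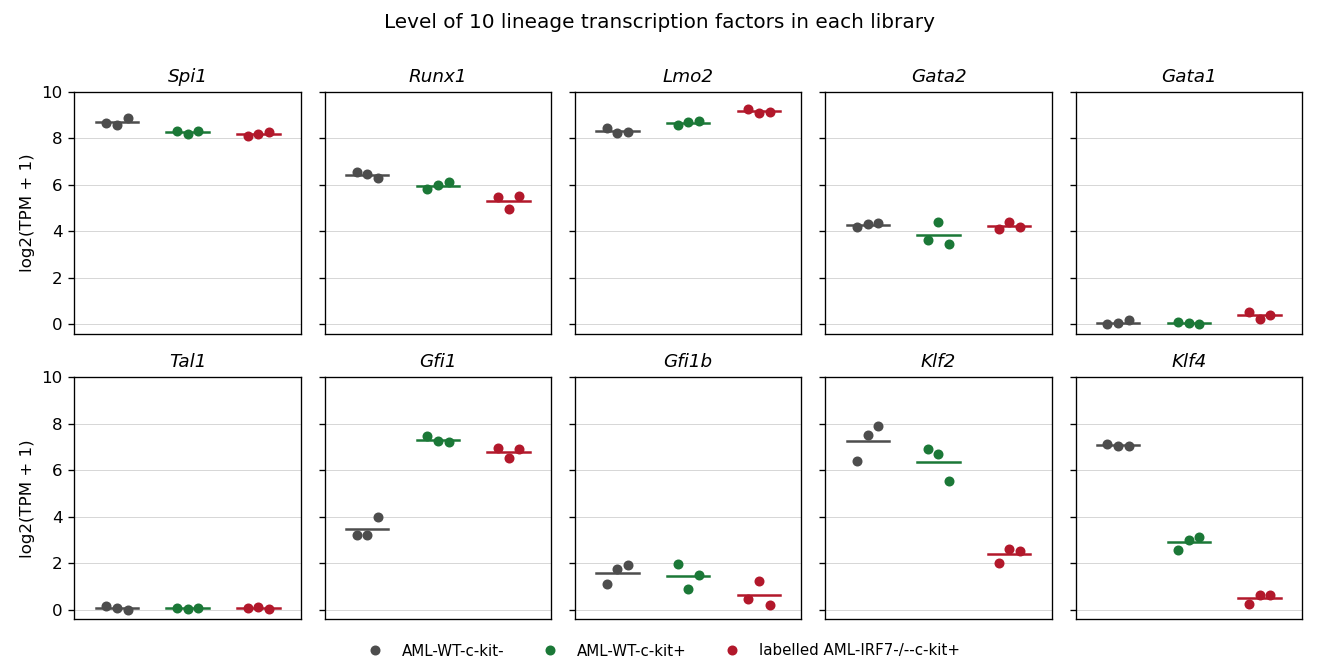
Level of the 10 factors in each of the 9 libraries, as log2(TPM + 1) on a common vertical axis. Points are libraries, 3 in each group, and the line is their mean. Klf4 falls in 2 steps from 131 to 138 TPM in WT c-kit- to 0.57 TPM or less in the knockout-labelled libraries, Gfi1 is at 15.1 TPM or less in WT c-kit- and at 92.25 TPM or more elsewhere, and Gata1 and Tal1 lie near zero in every library.

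Spi1 encodes PU.1, an ETS factor needed for monocytes and granulocytes, and it was among the most abundant genes of every group (position 336, 399 and 445 by mean TPM). GENCODE M21 places it on chromosome 2 of GRCm38, at 91082390 to 91115756 on the plus strand, with 5 exons in the principal transcript. Its level was 406, 384 and 462 TPM in the WT c-kit- libraries, 316, 287 and 317 TPM in the WT c-kit+ libraries, and 274, 289.6 and 307 TPM in the knockout-labelled c-kit+ libraries. All 3 WT c-kit- libraries were above the other 6, and both c-kit+ groups overlapped. Between the sorted WT groups Spi1 fell by 0.44 on the log2 scale (SE 0.09, limma adjusted p = 0.00675). That call was lost with quantile normalization, where the change was −0.24 (limma adjusted p = 0.0529). The change between the c-kit+ groups was −0.08, with a 95% interval of −0.24 to 0.08 (limma adjusted p = 0.362).

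Known PU.1 target genes did not all share the small change of Spi1. Of 6 such genes, 5 were tested. Between the sorted WT groups Csf1r and Cd68 fell while 3 did not pass, where 27.6% of all genes fell. Csf1r, the receptor for macrophage colony-stimulating factor, went from 399 ± 21.9 to 50.9 ± 14.7 TPM (SD, n = 3), a log2 change of −2.99 (SE 0.20, limma adjusted p = 7.12e-05). Cd68, a lysosomal protein of macrophages, changed by −2.01 (limma adjusted p = 7.55e-05). Csf1r, Csf3r and Itgam fell between the c-kit+ groups, where Spi1 itself did not pass and 16.1% of all genes fell. Their log2 changes were −0.76, −0.50 and −0.99 (limma adjusted p = 0.0244, 0.0161 and 0.00359). Cd68 (−0.42, limma adjusted p = 0.115) and Csf2ra (−0.15, limma adjusted p = 0.34) did not pass there.

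Runx1 encodes the DNA-binding subunit of core-binding factor, and its mean was lower in each group in turn. It spans chromosome 16 from 92601466 to 92826149 on the minus strand, the longest of the members. It was 93.2, 87.0 and 78.55 TPM in the WT c-kit- libraries, 55.02, 62.8 and 67.95 TPM in the WT c-kit+ libraries, and 43.4, 30.2 and 45.4 TPM in the knockout-labelled c-kit+ libraries. No 2 groups overlapped. The first step was −0.47 (SE 0.10, limma adjusted p = 0.00919) and the second −0.65 (SE 0.16, limma adjusted p = 0.0165). Both calls lay near the threshold: the first was lost with quantile normalization (−0.28, limma adjusted p = 0.056) and the second without WT c-kit+ replicate 3 (−0.58, limma adjusted p = 0.057). Over both steps together Runx1 fell by 1.12 (SE 0.16, limma adjusted p = 0.00103), and an adjusted p under 0.05 held in 13 of 13 alternatives. Without the knockout-labelled replicate 2 the log2 change was −0.94, so that Runx1 then passed only the test and not the fold threshold. Gm26626, an antisense gene within Runx1, was at 0.2 to 0.74 TPM.

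The other RUNX genes and the shared partner moved by less than 1 on the log2 scale and not in one direction. Cbfb, which encodes the non-DNA-binding subunit, fell by 0.38 between the sorted WT groups (SE 0.07, limma adjusted p = 0.0042), and so did Runx2, also by 0.38 (limma adjusted p = 0.0152). Runx3 rose by 0.67 between the c-kit+ groups, from 29.1 ± 4.27 to 46.5 ± 0.88 TPM (SD, n = 3, limma adjusted p = 0.00251), and Runx2 fell by 0.60 (limma adjusted p = 0.00999), while Cbfb did not pass.

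Lmo2 encodes a LIM protein that holds TAL1, GATA factors and LDB1 together, and it was the most abundant member in both c-kit+ groups. It lies on chromosome 2 at 103957986 to 103981878, plus strand. Its level was 343, 298 and 312 TPM in the WT c-kit- libraries, 382, 413 and 429.7 TPM in the WT c-kit+ libraries, and 615, 548 and 564 TPM in the knockout-labelled c-kit+ libraries. Each group lay above the one before it, with no overlap. The log2 change was 0.36 between the sorted WT groups (SE 0.08, limma adjusted p = 0.0098) and 0.49 between the c-kit+ groups (SE 0.07, limma adjusted p = 0.00187), or 0.37 above the median gene. Each call held in 13 of 13 alternatives. The gene 4931422A03Rik overlaps Lmo2 on the other strand, at 1.5 to 3.91 TPM.

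Of the proteins that LMO2 binds, the genes Tal1 and Gata1 were near zero and Gata2 was present. Tal1, a helix-loop-helix factor of stem and erythroid cells (chromosome 4, 115056426 to 115071755, plus strand), was at 0.13 TPM or less in all 9 libraries and listed at 0 in 1. Gata1, the factor of erythroid, megakaryocytic, mast and eosinophil cells (chromosome X, 7959260 to 7978071, minus strand), was listed at 0, 0.03 and 0.13 TPM in WT c-kit-, at 0.09, 0.03 and 0 TPM in WT c-kit+, and at 0.45, 0.19 and 0.33 TPM in the knockout-labelled c-kit+ libraries. The last 3 were above the other 6, but all 9 lay under 1 TPM, and how many reads they stand for is unknown. With no filter on low values, the difference in Gata1 between the c-kit+ groups was 0.34 on the log2(TPM + 1) scale (SE 0.08, limma adjusted p = 0.0308), and no fold is given since 1 WT c-kit+ library was at 0. Lyl1, the close relative of Tal1, was at 199 TPM or more in each library.

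Gata2, the GATA factor of stem, progenitor and mast cells (chromosome 6, 88193891 to 88207032, plus strand), was at 17.45, 18.9 and 19.5 TPM in the WT c-kit- libraries, 11.4, 19.9 and 10.1 TPM in the WT c-kit+ libraries, and 16.2, 20.0 and 17.1 TPM in the knockout-labelled c-kit+ libraries. The groups overlapped in each comparison. Neither the change between the sorted WT groups (−0.46, SE 0.23, limma adjusted p = 0.16) nor that between the c-kit+ groups (0.39, SE 0.24, limma adjusted p = 0.213) passed. WT c-kit+ replicate 2 stood apart from the other 2 of its group and decided both values. Without it both passed: the change was −0.74 from WT c-kit- to WT c-kit+ (limma adjusted p = 0.00415) and 0.67 from WT c-kit+ to the knockout-labelled libraries (limma adjusted p = 0.0078).

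Markers of the cells in which GATA factors are most used were read beside them. Of 8 erythroid markers the summed level was 3.36 to 17.6 TPM, with Slc4a1 at 0.05 TPM or less and Hba-a1 and Hba-a2 uncertain as near-identical copies. Eosinophil markers summed to at most 20.6 TPM over 4 genes. Most of this was Prg2, and the other 3 were under 1 TPM in all 9 libraries. Prg2 rose with the sort by 1.69 (limma adjusted p = 0.0265), where 14.0% of all genes rose. It did not pass between the c-kit+ groups (limma adjusted p = 0.576). Megakaryocyte markers summed over 8 genes to 6.68 to 8.15 TPM in WT c-kit-, 13.0 to 14.4 TPM in WT c-kit+ and 10.75 to 15.6 TPM in the knockout-labelled libraries. Of the 4 tested, Gp9 rose with the sort from 0.44 to 7.77 TPM (limma adjusted p = 4.9e-05), meeting the filter through WT c-kit+ alone. Vwf fell with the sort by 1.17 (limma adjusted p = 0.000808). Itga2b rose between the c-kit+ groups by 0.83, from 1.30 to 3.04 TPM (limma adjusted p = 0.0138). Gp1ba, also tested, passed in neither comparison (limma adjusted p = 0.448 with the sort and 0.0682 between the c-kit+ groups). Pf4, at 1.1 TPM or less, was too low to be tested. The 7 mast cell and basophil markers summed to 21.9 to 48.9 TPM in the WT c-kit- libraries, 45.8 to 83.6 TPM in WT c-kit+ and 189 to 245 TPM in the knockout-labelled c-kit+ libraries. Most of the last rise was in 1 gene, the histidine decarboxylase Hdc, at 5.14 to 8.61 TPM in WT c-kit+ and 105 to 179 TPM in the knockout-labelled libraries. The other 4 markers tested there did not pass. With the sort, Ms4a2 and Mcpt8 rose by 1.63 and 0.94 (limma adjusted p = 0.00709 and 0.0459), and the other 3 of the 5 tested did not pass. The part of such cells in the Gata1 and Gata2 levels was not tested.

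Of 10 complex partners of TAL1, LMO2 and the GATA factors, 5 fell and 5 did not pass between the sorted WT groups (median log2 fold change −0.26, where 27.6% of all genes fell), and 5 rose, 1 fell and 4 did not pass between the c-kit+ groups (median 0.29, against 0.12 for all genes, of which 31.9% rose and 16.1% fell). Tcf4, a partner helix-loop-helix factor, went from 85.0 ± 17.7 TPM in WT c-kit- to 20.9 ± 4.74 TPM in WT c-kit+ and 70.9 ± 14.1 TPM in the knockout-labelled libraries (SD, n = 3). These were log2 changes of −1.97 (SE 0.21, limma adjusted p = 0.00052) and 1.72 (SE 0.20, limma adjusted p = 0.000886). The corepressor Cbfa2t3 (ETO2) had the same 2 directions, with log2 changes of −1.62 and 0.91 (limma adjusted p = 0.000568 and 0.0067). Since both changes are taken from the same WT c-kit+ libraries, a low value there gives both. Ssbp2, a single-stranded DNA-binding protein that stabilizes LDB1, fell by 0.77 between the sorted WT groups (limma adjusted p = 0.00138). Cbfa2t2, a relative of Cbfa2t3, fell by 0.43 between the c-kit+ groups (limma adjusted p = 0.0231).

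Gfi1, the granulocytic repressor, had the largest rise of the members with the sort. It was 8.22, 8.28 and 15.1 TPM in the WT c-kit- libraries, 179, 152 and 148 TPM in the WT c-kit+ libraries, and 123, 92.25 and 121 TPM in the knockout-labelled c-kit+ libraries. No groups overlapped, and WT c-kit- replicate 3, the highest of its group for Gfi1, was also the highest for Kit. Between the sorted WT groups the mean rose 15.1-fold, a log2 change of 3.84 (SE 0.22, limma adjusted p = 4.53e-05), and Gfi1 was number 10 of 13261 genes by size of rise. Between the c-kit+ groups Gfi1 fell by 0.51 (SE 0.13, limma adjusted p = 0.0172). That call was lost with all 9 libraries in one fit (limma adjusted p = 0.0798) and without WT c-kit+ replicate 1 (−0.43, limma adjusted p = 0.0569).

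Gfi1 lies on chromosome 5 at 107716657 to 107726036 of GRCm38, on the minus strand, and the noncoding gene A430072P03Rik overlaps it on the other strand. A430072P03Rik was at 0.93 to 1.59 TPM in the WT c-kit- libraries, 7.26 to 10.9 TPM in WT c-kit+ and 4.44 to 6.00 TPM in the knockout-labelled libraries, the same order of groups as Gfi1. Whether strand was used in counting is not given in the sources used here, so reads of the 2 genes cannot be told apart where they overlap.

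Gfi1b, the erythroid and megakaryocytic relative, stayed low where Gfi1 was high and where it was low. It was 1.16, 2.39 and 2.83 TPM in the WT c-kit- libraries, 2.93, 0.85 and 1.86 TPM in the WT c-kit+ libraries, and 0.39, 1.39 and 0.15 TPM in the knockout-labelled c-kit+ libraries. The groups overlapped throughout. The change was −0.14 between the sorted WT groups (95% interval −0.95 to 0.66, limma adjusted p = 0.763) and −0.81 between the c-kit+ groups (95% interval −1.69 to 0.06, limma adjusted p = 0.109). The latter passed without the knockout-labelled replicate 2 (−1.12, limma adjusted p = 0.046). Against WT c-kit-, Gfi1b fell by 0.96 in the knockout-labelled libraries (SE 0.34, limma adjusted p = 0.0443), but this call was lost in 7 of 12 alternatives (limma adjusted p from 0.0145 to 0.135).

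The window before the Gfi1b start is shown because GFI1 and GFI1B are known to act on this promoter. It spans chr2:28621983-28622232 of GRCm38, minus strand, and is given by RefSeq (GRCm38.p6) from 250 bases upstream up to the start site, written 5′ to 3′ on the gene's strand. Capitals mark matches on either strand to AATC (the core of GFI1 factor sites), CCAAT (bound by NF-Y), CACCC (bound by KLF factors), GGGCGG (a GC box) and a GATA word, that is GATA with A or T before it and A or G after it.
Gfi1b: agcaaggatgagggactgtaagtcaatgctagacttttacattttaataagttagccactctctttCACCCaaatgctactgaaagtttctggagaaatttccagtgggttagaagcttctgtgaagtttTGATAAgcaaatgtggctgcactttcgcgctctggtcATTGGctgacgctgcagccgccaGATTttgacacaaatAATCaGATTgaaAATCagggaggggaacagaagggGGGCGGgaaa
The window held 4 AATC matches, all within 60 bases of the start, and 1 match to each of the other 4. AATC alone is common: it was in 69.0% of 32817 RefSeq windows of this length, and a GATA word was in 26.6%. A match is only a description of the letters.

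The corepressors through which GFI1 factors act changed little. Of 5 genes, Rcor1, a scaffold of the LSD1 complex, rose by 0.49 between the sorted WT groups (SE 0.06, limma adjusted p = 0.000692), from 29.6 ± 0.32 to 42.05 ± 0.56 TPM (SD, n = 3), and the other 4 did not pass. The histone deacetylases Hdac2 and Hdac1 rose between the c-kit+ groups by 0.38 and 0.30 (limma adjusted p = 0.00233 and 0.00465), and the other 3 did not pass. Over all genes 14.0% rose in the former comparison and 31.9% in the latter.

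**Figure D2:**
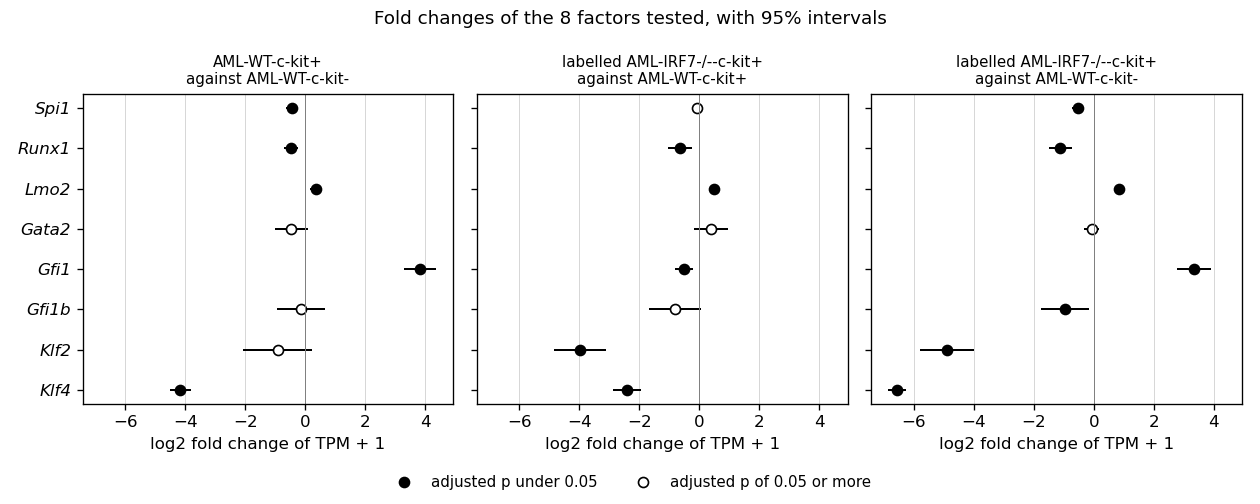
Log2 fold change of TPM + 1 for the 8 factors tested in 3 comparisons, from limma, with 95% intervals as horizontal lines. Filled points have an adjusted p under 0.05. Gfi1 lies at 3.84 and Klf4 at −4.16 in the comparison of the sorted WT groups, and Klf2 at −3.98 and Klf4 at −2.40 between the c-kit+ groups.

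Klf4, a monocyte factor (chromosome 4, 55527143 to 55532466, minus strand), had the largest fall of the members with the sort and fell again between the c-kit+ groups. It was 138, 131 and 131 TPM in the WT c-kit- libraries, 4.99, 7.14 and 7.85 TPM in the WT c-kit+ libraries, and 0.21, 0.57 and 0.54 TPM in the knockout-labelled c-kit+ libraries. Its spread within WT c-kit- was 3.07% of the mean. Between the sorted WT groups the mean was 20.1-fold lower, a log2 change of −4.16 (SE 0.15, limma adjusted p = 1.08e-05). Between the c-kit+ groups the mean was 15.1-fold lower, and log2(TPM + 1) changed by −2.40 (SE 0.20, limma adjusted p = 0.00025). With 0.1 added in place of 1 the change was −3.70 (limma adjusted p = 0.000592), so its size depends on the value added. Since all 3 knockout-labelled libraries were under 1 TPM, Klf4 met the filter there through WT c-kit+ alone and could only be called lower. With a filter of 5 TPM Klf4 was no longer tested in the latter comparison, and otherwise each call held in every alternative.

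Klf2, a factor of quiescence and endothelium (chromosome 8, 72319033 to 72321656, plus strand), spread widely within the WT groups and was low in all 3 knockout-labelled libraries. It was 84.6, 182 and 237 TPM in the WT c-kit- libraries, 118, 103 and 45.0 TPM in the WT c-kit+ libraries, and 3.01, 5.22 and 4.81 TPM in the knockout-labelled c-kit+ libraries. The WT groups overlapped, and their difference did not pass (−0.90, SE 0.48, limma adjusted p = 0.18). Between the c-kit+ groups the mean was 20.4-fold lower, a log2 change of −3.98 (SE 0.37, limma adjusted p = 0.000389), and Klf2 was number 33 of 13238 genes by size of fall. The call held in 13 of 13 alternatives, with log2 changes from −4.41 to −3.72. The 5 endothelial markers summed to 83.8 to 99.4 TPM in WT c-kit-, 37.9 to 47.8 TPM in WT c-kit+ and 92.2 to 105.7 TPM in the knockout-labelled libraries. Nearly all of this was Pecam1, an adhesion molecule that leukocytes also carry, which fell by 1.07 with the sort (limma adjusted p = 0.000292) and rose by 1.21 between the c-kit+ groups (limma adjusted p = 0.00021), where Klf2 fell. The other 4 were under 1 TPM in all 9 libraries, and the part of such cells in the Klf2 level was not tested.

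The windows before the Klf2 and Klf4 starts are shown because these members fell together between the c-kit+ groups. They are from RefSeq (GRCm38.p6), 5′ to 3′ on each gene's strand: chr8:72318812-72319032, plus strand, which stops at the GENCODE gene, 29 bases before the RefSeq start, and chr4:55532476-55532725, minus strand. Capitals mark GGGCGG (a GC box, bound by SP and KLF factors), on either strand and overlapping in 1 place in Klf4, and the MEF2 site of Klf2.
Klf2: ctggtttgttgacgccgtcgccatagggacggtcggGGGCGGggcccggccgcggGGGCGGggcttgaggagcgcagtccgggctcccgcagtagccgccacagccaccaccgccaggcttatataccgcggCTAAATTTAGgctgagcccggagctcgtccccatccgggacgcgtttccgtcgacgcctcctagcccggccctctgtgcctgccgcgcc
Klf4: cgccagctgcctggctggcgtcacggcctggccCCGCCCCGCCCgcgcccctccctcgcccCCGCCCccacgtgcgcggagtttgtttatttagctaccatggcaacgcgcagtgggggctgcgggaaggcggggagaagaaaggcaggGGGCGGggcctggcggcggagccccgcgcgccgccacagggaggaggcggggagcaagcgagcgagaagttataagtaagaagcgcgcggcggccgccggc
Klf2 held 2 GC boxes and Klf4 held 4, and 32.7% of all windows held at least 1. The MEF2 site, 118 bases before the Klf2 RefSeq start, was in 0.509% of all windows and in 1 of the 12 windows that the table gives for 8 members. No member window held TGTGGT (RUNX) or GAGGAAGT (PU.1), which 14.0% and 2.44% of all windows hold. G and C made up 71.2% of the full Klf2 window and 74.0% of the Klf4 window, against a median of 52.4%. Spi1 and Lmo2 are not in the promoter table.

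Klf2 fell between the c-kit+ groups, and so did most early response genes that were tested. As background, early response genes are induced within minutes and can rise while cells are handled. A list of 16 such genes, Fos, Jun and Egr1 among them, summed to 1789 to 4101 TPM in the WT c-kit- libraries, 1192 to 2517 TPM in WT c-kit+ and 268 to 635 TPM in the knockout-labelled c-kit+ libraries. Between the c-kit+ groups 13 of the 15 tested fell, each by at least 1 on the log2 scale. Atf3, among the 13, met the filter there through WT c-kit+ alone and could only be called lower. The median was −2.45 against 0.12 for all genes, of which 16.1% fell. Nr4a1 fell by 3.86 (limma adjusted p = 0.000111), Jun by 3.76 (limma adjusted p = 0.00759) and Egr1 by 2.77 (limma adjusted p = 0.0283), while Fos (−0.77, limma adjusted p = 0.257) and Fosb (−1.74, limma adjusted p = 0.0667) did not pass. Between the sorted WT groups 5 of 16 fell and 1 rose, where 27.6% of all genes fell and 14.0% rose. Socs3, among the 5, met the filter through WT c-kit- alone and could only be called lower.

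Within the WT groups Klf2 was lowest in the libraries where many early response genes were lowest, and Klf4 was not. In WT c-kit-, Klf2 had the same order of libraries as Dusp1 (71.6, 209.7 and 266 TPM), Atf3, Nr4a1, Jund, Ier3 and Socs3. Klf4 was at 131 TPM or more in each. Fos, Jun, Egr1, Fosb, Btg2, Ier2, Junb and Zfp36 were also lowest in replicate 1 but highest in replicate 2, unlike Klf2. Hspa1a and Hspa1b were highest in replicate 1. In WT c-kit+, replicate 3 was lowest for Klf2 and for Jun (132 TPM against 262 and 454 TPM), Fos, Dusp1, Egr1, Zfp36, Nr4a1, Btg2, Ier2, Ier3 and Jund. Klf4 was highest there. These early response genes were highest in replicate 2, whereas Klf2 was highest in replicate 1. Atf3, Fosb, Junb and Socs3 were lowest in replicate 1, and Hspa1a and Hspa1b were highest in replicate 3. In the knockout-labelled libraries, replicate 3 had the highest Fos, at 128 TPM against 54.5 and 33 TPM, where Klf2 was 4.81 TPM. Klf2 was highest in replicate 2, at 5.22 TPM. Fos, Jun, Egr1, Dusp1, Fosb, Junb, Jund, Btg2, Ier2, Ier3, Atf3, Hspa1a and Hspa1b were lowest in replicate 2. Nr4a1 had the same order of libraries as Klf2, Zfp36 was lowest in replicate 1 as Klf2 was, and Socs3 was highest in replicate 2. The part of handling in the Klf2 and Klf4 results was not tested. Hspa1a and Hspa1b on this list are near-identical copies, and their values are uncertain.

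**Figure D3:**
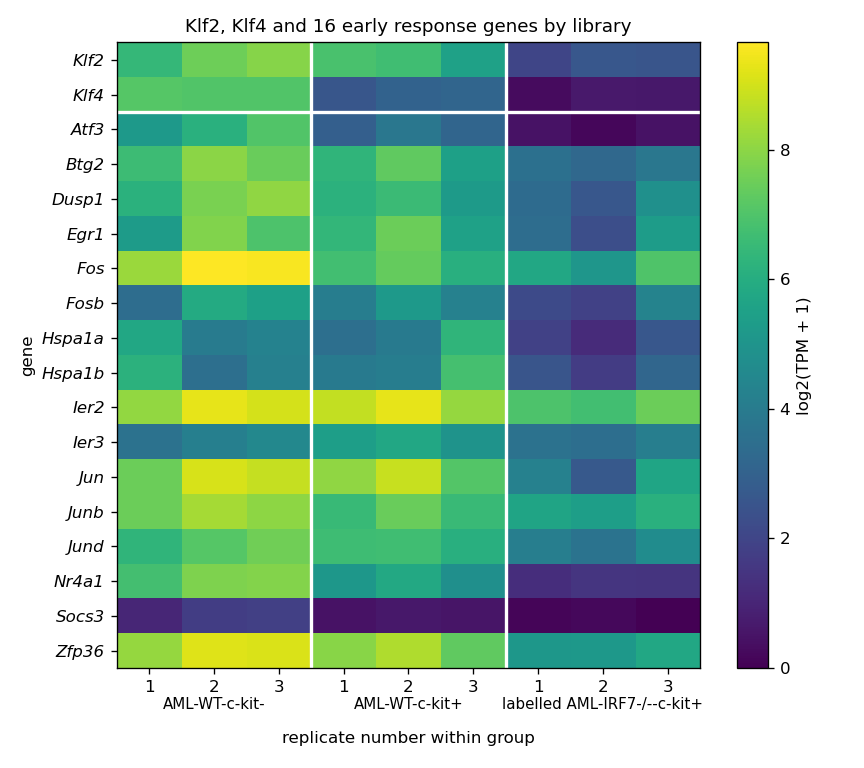
Level of Klf2, Klf4 and the 16 early response genes in the 9 libraries, colored by log2(TPM + 1), with white lines between the groups. The knockout-labelled libraries are darkest in most rows, and the Klf4 row falls by step from group to group whereas most early response rows vary among libraries of one group.

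Other KLF genes also fell. Of 6 tested, 4 fell and 1 rose between the sorted WT groups (median −1.03), where 27.6% of all genes fell and 14.0% rose. Between the c-kit+ groups 4 fell and 2 did not pass (median −0.77), where 16.1% of all genes fell. Klf6, a widely expressed factor induced by injury signals, went from 131 ± 48.2 to 53.0 ± 12.8 and 10.01 ± 1.17 TPM (SD, n = 3), log2 changes of −1.25 (SE 0.30, limma adjusted p = 0.0153) and −2.27 (SE 0.18, limma adjusted p = 0.000218). Klf10, a TGF-beta-induced factor, fell by 1.18 between the sorted WT groups (limma adjusted p = 0.000182), and Klf13 fell by 1.01 between the c-kit+ groups (limma adjusted p = 0.00756). Klf5 was the exception, with a rise of 1.98 between the sorted WT groups (SE 0.44, limma adjusted p = 0.0114) and a fall of 1.45 between the c-kit+ groups (SE 0.27, limma adjusted p = 0.0049). Klf1, the erythroid KLF gene, was too low to be tested.

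Of the ETS factors related to PU.1, 3 of 6 tested rose and 1 fell between the sorted WT groups, where 14.0% of all genes rose and 27.6% fell. Ets1, best known in lymphocytes, went from 4.53 ± 3.65 to 29.2 ± 7.10 TPM (SD, n = 3), a log2 change of 2.61 (SE 0.44, limma adjusted p = 0.00352). Erg, a stem cell factor, rose by 0.78 (limma adjusted p = 0.000209), and Spib, the lymphoid relative of Spi1, fell by 1.00, from 2.08 to 0.54 TPM (limma adjusted p = 0.0038). Spib met the filter there through WT c-kit- alone and could only be called lower. Ets1 and Fli1 fell between the c-kit+ groups, by 1.13 and 0.52 (limma adjusted p = 0.0067 and 0.00128). The other 3 tested did not pass, and 16.1% of all genes fell in that comparison.

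Among 9 other lineage factors, 8 were tested between the sorted WT groups, and 5 fell and 1 rose. Myb, a progenitor factor, rose by 1.54 to 446 ± 19.7 TPM (limma adjusted p = 2.72e-05), and Zeb2, a repressor used in monocytes and dendritic cells, fell by 1.26 (limma adjusted p = 0.00127). Between the c-kit+ groups 3 of 7 fell and 2 rose. Bcl11a, a zinc finger factor of B cells and fetal globin silencing, was at 4.67 to 6.46 TPM in WT c-kit+ and 0.03 to 0.06 TPM in the knockout-labelled libraries (−2.60, SE 0.15, limma adjusted p = 7.71e-05). It met the filter there through WT c-kit+ alone and could only be called lower. Id2, an inhibitor of helix-loop-helix factors, fell by 2.43 (limma adjusted p = 0.000917), and Zeb2 rose by 0.88 (limma adjusted p = 0.00319). Over all 6 groups of partners and relatives, 6 of 38 tested rose and 17 fell between the sorted WT groups, and 10 of 36 rose and 11 fell between the c-kit+ groups. Over all genes 14.0% rose and 27.6% fell in the former comparison, and 31.9% rose and 16.1% fell in the latter.

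**Figure D4:**
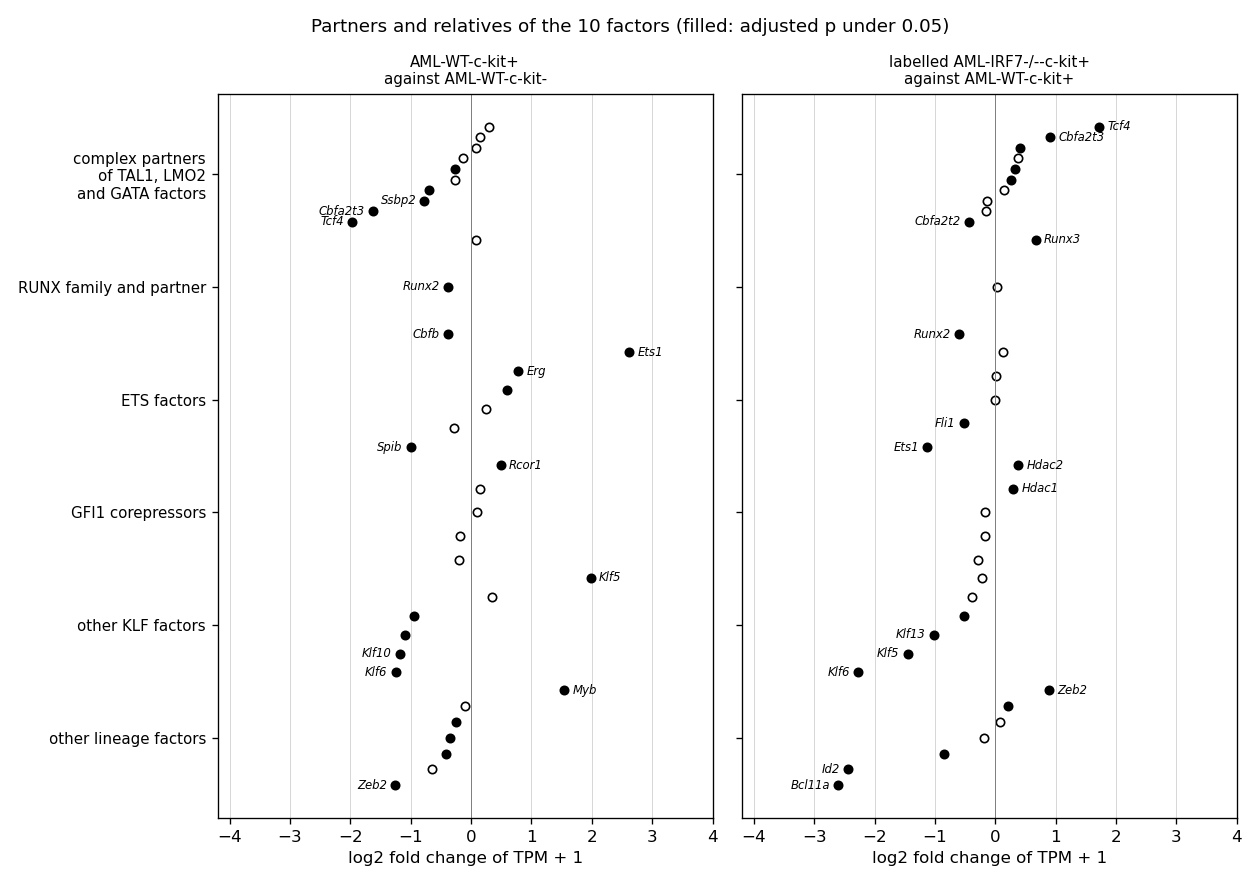
Log2 fold change of TPM + 1 for each tested gene in 6 groups of partners and relatives, between the sorted WT groups (left) and between the c-kit+ groups (right). Each point is a gene (1 tested gene is not shown), filled with an adjusted p under 0.05, and named genes are labelled. Tcf4 lies at −1.97 on the left and 1.72 on the right, and the KLF genes lie mostly to the left of zero in both panels.

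The order of the members by level changed with the groups. By mean TPM it was Spi1 (418), Lmo2 (318), Klf2 (168), Klf4 (134), Runx1 (86.2), Gata2 (18.6), Gfi1 (10.54) and Gfi1b (2.13) in WT c-kit-. In WT c-kit+ it was Lmo2 (408), Spi1 (307), Gfi1 (159), Klf2 (88.7), Runx1 (61.9), Gata2 (13.8), Klf4 (6.66) and Gfi1b (1.88). In the knockout-labelled c-kit+ libraries it was Lmo2 (576), Spi1 (290.2), Gfi1 (112), Runx1 (39.7), Gata2 (17.8), Klf2 (4.35), Gfi1b (0.64) and Klf4 (0.44). Neighbors whose libraries overlapped were Klf2 and Klf4 in WT c-kit-, Klf2 and Runx1 in WT c-kit+, and both Gfi1b and Klf4 and Klf4 and Gata1 in the knockout-labelled libraries. Gata1 and Tal1 had the lowest means in each group and overlapped each other in the WT groups. The 10 members summed to 988 to 1259 TPM in a library.

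The gene most like each member across the 9 libraries was sought by Pearson's r of log2(TPM + 1) among 13961 genes, as a description only, since the libraries fall into 3 groups. Klf4 was closest to Atp6v1g1, a subunit of the proton pump of lysosomes (r = 0.998), which was at 146 to 151, 81.9 to 84.1 and 56.0 to 62.2 TPM in the 3 groups. Gfi1 was closest to Stxbp5 (r = 0.996), Lmo2 to Ruvbl2 (r = 0.994), and Spi1 to Mgrn1 (r = 0.985). Klf2 was closest to the pseudogene Gm9522 (r = 0.995), at 1.32 to 2.82 TPM in the 6 WT libraries and 0.08 TPM or less in the others. For Runx1 it was Gm29055 (r = 0.972), for Gfi1b P2ry13 (r = 0.943), and for Gata2 Hook2 (r = 0.940).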

How the data were processed

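Total RNA of 9 libraries was sequenced. A single table with 55536 genes was deposited, with values taken as TPM, that is, as scaled by gene length and library total. Its header names no unit. TPM was read from the library sums, which lay between 987468 and 992231. The labels describe RNA sequencing libraries and the study's text calls the assay a microarray. Aligner, genome build and filters are not given in the sources used here. Of the gene identifiers, 55450 are in the GENCODE M21 annotation of GRCm38, which gave coordinates and overlaps. One column, that of WT c-kit+ replicate 3, carries 1 digit too many in its name and fits no other label.

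Every gene that reached 1 TPM in 3 or more of 6 libraries was fitted on log2(TPM + 1) with limma 3.58.1 in R 4.3.3 (lmFit, eBayes with trend), each pair of groups on its own libraries, with Benjamini-Hochberg adjustment over all genes tested. Where 1 library was left out, at least 2 libraries had to reach 1 TPM. The functions were tested on simulated data. Since other genes share the fixed total, TPM of a gene can fall when abundant genes rise. Only the 3 libraries of a group tell the precision of a value.

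The members and lists were chosen with earlier results of these data known. Named from each of 6 lists were up to 3 genes with the largest log2 fold change among those with an adjusted p under 0.05 and, in the higher group, a mean of 1 TPM or more, for each of the comparisons between the sorted WT groups and between the c-kit+ groups. Irf7, Kit, all members and the gene most like each member were also named. One gene that the rule names is not reported here. Other genes were named after their values were seen. Tables were read with pandas 2.3.3 under Python 3.11.15, and plots drawn with matplotlib 3.10.9. Alternatives were no filter, a pseudocount of 0.1, a filter of 5 TPM, equal library medians, quantile normalization, a common fit of the 9 libraries, the replicate block and each library left out.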

Additional observations from a re-analysis of the deposited data

How the results depend on the processing

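Over all alternatives no member changed sign where it had passed the test, and 293 of 308 single-member values stayed on their side of the threshold. With quantile normalization 3 members passed between the sorted WT groups, in place of 5. With a filter of 5 TPM 1 member passed both thresholds between the c-kit+ groups, in place of 2, since Klf4 was no longer tested there. With each library left out, 5 to 6 members passed between the sorted WT groups, 4 to 6 between the c-kit+ groups and 6 to 7 between the knockout-labelled c-kit+ libraries and WT c-kit-. Equal replicate numbers correlated by −0.07, 0.24 and 0.05 between the sorted WT groups and by 0.02 to 0.10 in the other comparisons, where each library correlated best with its own number, apart from the knockout-labelled replicate 3 against WT c-kit+, a hint from the data and not from the design. The labels do not say what a number marks, and the pairing was not taken as shown. With the replicate block 5, 5 and 7 members passed in the 3 comparisons, as without it, and no member's call changed. The values are TPM with no depth, so levels under 1 TPM, as of Gata1, Tal1 and the knockout-labelled Klf4, cannot be given a counting error.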
